A study of Coryphaena hippurus with 32 samples.

Results

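Cartilage owes its stiffness and resilience to a matrix of collagen fibrils and proteoglycans, and the 10 genes described here encode parts of that matrix: COL2A1, COL9A1, COL9A2, COL9A3, COL11A2, COL10A1, MATN3, EPYC, LECT1 and CRTAC1. They were chosen as a list of gene symbols, with earlier results of these data known, and are 10 of the 10998 genes with a count. All 10 were found in the count table, and 9 of them had counts at every stage. The RNA came from whole animals of an open-ocean fish, the mahi-mahi Coryphaena hippurus, at 24, 48 and 96 hpf (hours post fertilisation). Each stage had a slick group, kept in seawater with a high-energy water accommodated fraction of weathered Deepwater Horizon oil taken from the sea surface, a source group, kept in the same kind of fraction made from the oil of the well (also called mass oil), and a control group kept in seawater alone. Both oils carry 1 g/l as their concentration in the labels, and controls 0 g/l. Measured hydrocarbon levels were not used here, so the kind of oil and the dose cannot be told apart. All groups shared the rest of the procedure: embryos from spawns of wild-caught broodstock, 27 °C, beakers without water renewal, and 30 pooled animals per sample. No genotype or strain is given.

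In the cartilage of vertebrates, type II collagen, made of COL2A1 chains, forms the bulk of the fibrils. Type XI collagen, to which COL11A2 contributes, sits in the fibril core and limits fibril width, and type IX collagen, built from the COL9A1, COL9A2 and COL9A3 chains, coats the fibril surface and links it to other matrix molecules. Matrilin-3 (MATN3) is an adaptor between these networks, epiphycan (EPYC) a small leucine-rich proteoglycan of growing cartilage, chondromodulin (LECT1) a protein that keeps vessels out of cartilage, and CRTAC1 a secreted acidic cartilage protein that is also made in other tissues, among them the nervous system in mammals. Type X collagen (COL10A1) marks hypertrophic chondrocytes in mammals, and in zebrafish and medaka it is also made by bone-forming cells. In zebrafish embryos COL2A1 is also strongly expressed in the notochord and its sheath, so whole-animal levels of these genes are not those of cartilage alone.

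After near-identical control samples had been combined there were 27 libraries, 3 in each of the 9 groups, from 32 deposited samples of 5425111 to 8884058 counts each over all lines of the table. Samples had 1823727 to 2560303 counts left once a single line stood for each gene. CYP1A1, the monooxygenase induced by oil hydrocarbons, followed the labels: it averaged 944 ± 63.8, 1629 ± 79.9 and 1445 ± 125 TMM-normalised CPM in slick, 328 ± 20, 555 ± 22.2 and 468 ± 40.3 CPM in source and 42.4 ± 8.77, 54.2 ± 4.19 and 41.4 ± 6.48 CPM in control animals at 24, 48 and 96 hpf (SD, n = 3). Of cartilage markers outside the 10 genes, SOX9, ACAN, HAPLN1 and COL11A1 had counts in whole animals at every stage. MATN1, also such a marker, was at 0 in slick and control embryos at 24 hpf and in slick animals at 48 hpf. It was near 0 in the other groups before 96 hpf, at 0.158 CPM in source at 24 hpf and 0.153 and 0.173 CPM in source and control at 48 hpf. CPM are counts scaled to the size of the library, with edgeR's TMM factors, and a change is a log2 ratio or a fold from edgeR's quasi-likelihood test. A gene was called at a Benjamini-Hochberg adjusted p below 0.05 over all genes tested. In RNA of whole animals, fewer cells of a type and less RNA per cell cannot be told apart. Gene lengths are not part of the table, so levels are compared between groups for 1 gene and not between genes.

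Control animals give the course of these genes without oil. The collagens of the fibril surface and core were already present at 24 hpf, MATN3 rose by 48 hpf, and COL10A1 appeared at 96 hpf. At 48 against 24 hpf, 9 of the 10 genes could be tested: 3 were called higher, where 25.0% of all 8898 genes tested were, and 3 lower, where 22.9% were. At 96 against 48 hpf all 10 were tested, with 4 called higher (34.9% of all genes) and 3 lower (27.4%). The medians of their log2 changes were -0.08 and 0.07, beside 0.01 and 0.05 over all genes, with calls in both directions at each step. With COL10A1 set at its bound below, instead of its fitted change, the later median is the same, since the gene stays the highest.

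COL10A1 had the plainest course. It had 0 counts in all 9 libraries at 24 hpf and all 9 at 48 hpf, and 389, 375 and 412 CPM in the 3 control libraries at 96 hpf. Taking 3 counts per library as the limit that 0 allows, it was at least 513-fold higher in control larvae at 96 than at 48 hpf. The same bound was 134-fold in slick and 226-fold in source larvae. These bounds depend on depth: the limit averaged 0.764 CPM in control, 1.35 CPM in slick and 1.49 CPM in source at 48 hpf. Against 24 hpf the bound was 247-fold in control, 122-fold in slick and 238-fold in source larvae. MATN3 had 80.1, 88.2 and 81.4 CPM in controls at 48 hpf, against 42.9, 41.4 and 36.2 CPM at 24 hpf, a 2.05-fold rise (adjusted p = 3.5e-11) with no overlap.

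COL2A1 fell between 48 and 96 hpf. It had 6467, 5774 and 5470 CPM in controls at 96 hpf, against 7156, 7746 and 7323 CPM at 48 hpf, all 3 older libraries below all 3 younger ones (0.805-fold, adjusted p = 3.2e-08). At 48 against 24 hpf it stood at 0.946-fold (adjusted p = 0.19), and was called lower there when every line was a feature of its own (adjusted p = 0.0065). EPYC fell to 0.619-fold over the same interval (59.6 ± 8.53 against 96.9 ± 4.53 CPM, SD, n = 3, adjusted p = 3.9e-11), after a small rise by 48 hpf (1.18-fold, adjusted p = 0.036). LECT1 was lower at 48 than at 24 hpf (0.744-fold, adjusted p = 3.1e-07) and stood at 1.1-fold at 96 against 48 hpf (adjusted p = 0.057, not called). CRTAC1 was called at 96 against 48 hpf only, at 48.5 against 19.3 CPM (2.55-fold, adjusted p = 5.5e-19). COL11A2 was called at 48 against 24 hpf only (1.18-fold, adjusted p = 0.00036). The calls of EPYC at 48 against 24 hpf and of COL9A2 at both steps were not kept in every setting tried.

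The 3 chains of type IX collagen, each read from its line of highest total, did not keep step in controls. COL9A2 and COL9A3 were lower at 48 than at 24 hpf (0.854-fold and 0.781-fold, adjusted p = 0.017 and 1.4e-05) and higher at 96 than at 48 hpf (1.2-fold and 1.29-fold, adjusted p = 0.0019 and 8.3e-07). COL9A1 was lower at 96 than at 48 hpf (0.685-fold, adjusted p = 1e-08). Of its 11 lines tested on their own, 9 were called lower and 2 higher at that step. The ratio of COL9A1 to COL9A2 counts was 0.51 at 24 hpf, 0.542 at 48 hpf and 0.309 at 96 hpf in controls. At 96 hpf that ratio was 0.314 ± 0.0216 in slick and 0.326 ± 0.0308 in source, against 0.309 ± 0.00758 in control larvae (SD, n = 3), and the ranges of the 3 groups overlapped. At 48 hpf it was 0.584 to 0.597 in source and 0.523 to 0.574 in control animals, without overlap. The ratio of COL9A1 to COL9A3 counts did overlap there, at 0.421 to 0.51 in source and 0.439 to 0.486 in control animals.

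**Figure D1:**
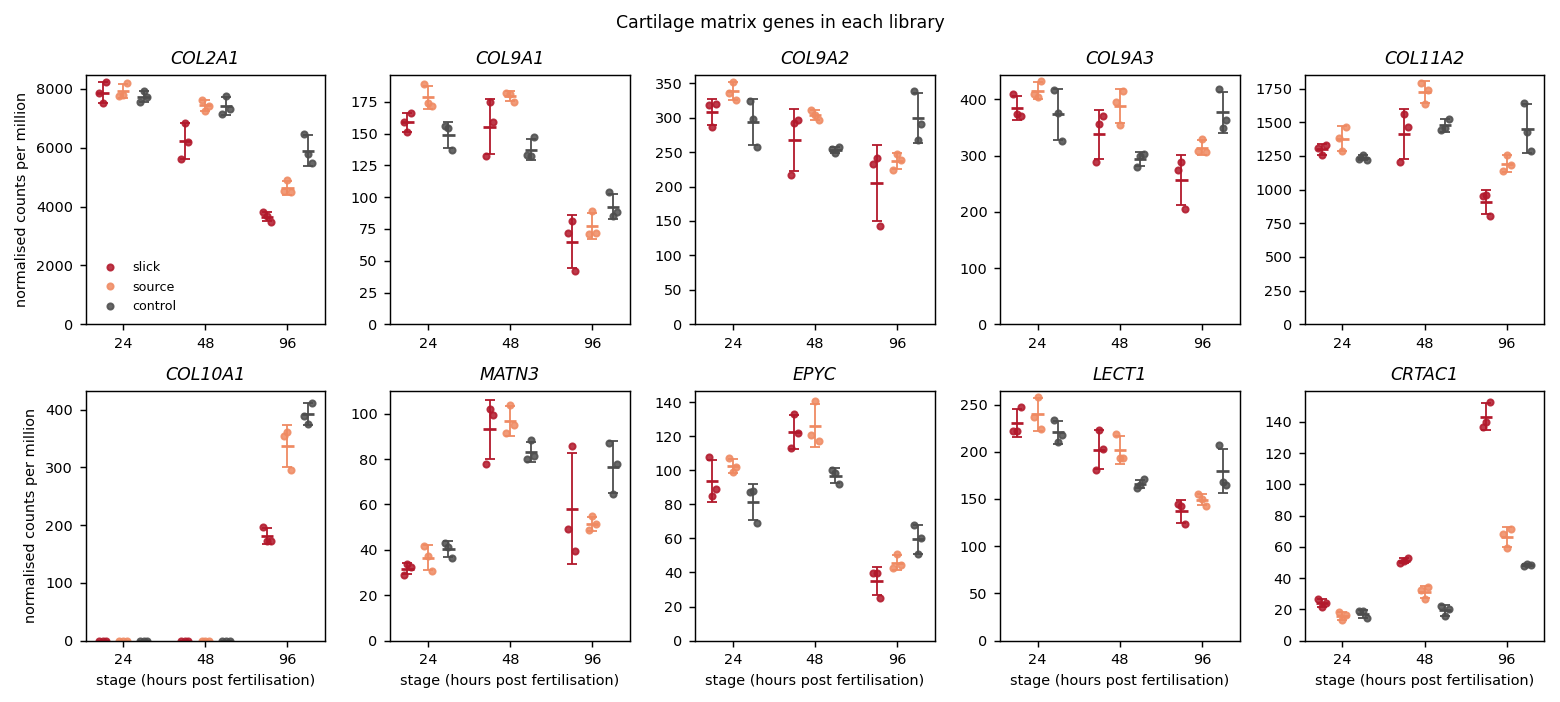
Level of each of the 10 genes in TMM-normalised CPM (vertical axis, from 0) at 24, 48 and 96 hpf (horizontal axis), with 1 point per library and the mean ± SD of 3 libraries for slick, source and control. At 96 hpf the slick points of COL2A1, COL11A2 and COL10A1 lie below all source and control points, those of CRTAC1 above them, and COL10A1 has 0 counts at 24 and 48 hpf.

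In slick animals 0 of these genes were called at 24 hpf, 3 were higher and 1 lower at 48 hpf, and at 96 hpf 9 were lower and 1 higher. At 24 hpf 9 genes were tested and edgeR called 0, as did DESeq2 among the 5 to which it gave an adjusted p. Of all 7757 genes tested edgeR called 0.580% in either direction. Without adjustment, 3 of the 9 had p below 0.05, as did 8.42% of all genes: MATN3 (0.787-fold), EPYC (1.16-fold) and CRTAC1 (1.39-fold), with adjusted p from 0.43 to 0.57. The 2 whose groups did not overlap were MATN3 and CRTAC1, where 12.7% of all genes did not overlap. The median log2 change of the 9 was 0.07, beside -0.00 over all genes.

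At 48 hpf, CRTAC1, EPYC and LECT1 were called higher in slick animals, 3 of 9 tested where 1.48% of all 8060 genes were. COL2A1 was called lower, 1 of 9 where 1.82% of all genes were. CRTAC1 had 49.7, 50.8 and 53 CPM in slick, against 21.9, 15.4 and 20.5 CPM in control animals, a change of 1.42 ± 0.13 on the log2 scale (SE; 2.68-fold, adjusted p = 1.6e-11). The slick libraries lay close together and far above the controls. COL2A1 had 5617, 6837 and 6205 CPM in slick and 7156, 7746 and 7323 CPM in control animals, so every slick library lay below every control library, by a small margin (0.845-fold, adjusted p = 0.0011).

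EPYC, the small proteoglycan, had 113, 133 and 122 CPM in slick, against 100, 98.7 and 91.8 CPM in control animals at 48 hpf (1.28-fold, adjusted p = 0.0018). LECT1 had 181, 223 and 203 CPM in slick, against 162, 165 and 171 CPM (1.23-fold, adjusted p = 0.0031). Neither gene's groups overlapped, and both were higher while COL2A1 was lower. In all, 4 of the 9 genes had groups that did not overlap, where 18.9% of all genes did not. The calls of COL2A1, EPYC and LECT1 were lost when all lines of each gene were summed (adjusted p = 0.14, 0.066 and 0.089). EPYC and LECT1 have 1 distinct line each, so their own counts were unchanged in that fit. The call of LECT1 was also lost without slick replicate 5 (adjusted p = 0.11), and those of COL2A1 and EPYC with a replicate block (adjusted p = 0.15 and 0.065). That of CRTAC1 was kept in every setting tried.

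The remaining 5 genes did not pass the test in slick at 48 hpf, with log2 changes of -0.06 for COL11A2, 0.09 for COL9A2, 0.16 for MATN3, 0.19 for COL9A1 and 0.20 for COL9A3. Slick replicate 4 was the lowest of the 9 libraries of that stage for 5 of 9 genes (COL2A1, COL9A1, COL9A2, COL11A2 and MATN3). Without it 7 of the 9 genes were called, where 3.49% of all genes were (3.3% with it), and COL9A1, COL9A2 and COL9A3 were higher in slick (adjusted p = 0.0093, 0.023 and 0.00045).

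At 96 hpf all 10 genes could be tested and all 10 were called in slick larvae. Of these, 9 were lower, where 10.4% of all 8511 genes were lower, and CRTAC1 alone was higher, where 10.9% were higher. The median log2 change was -0.52, beside 0.01 over all genes. In 9 of the 10 genes no slick library overlapped the controls, MATN3 being the exception, while 34.1% of all genes did not overlap. Together the 10 genes held 0.576 to 0.646% of a library's counts in slick and 0.881 to 1.06% in control larvae, most of it COL2A1.

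The collagens of the fibril itself fell together. COL2A1 had 3808, 3683 and 3493 CPM in slick larvae, against 6467, 5774 and 5470 CPM in controls. All slick libraries lay well below all control libraries, a change of -0.65 ± 0.05 (SE; 0.639-fold, adjusted p = 2.6e-23). COL11A2 had 955, 961 and 804 CPM in slick and 1646, 1428 and 1284 CPM in control larvae (0.642-fold, adjusted p = 1.3e-19). The ratio of COL11A2 to COL2A1 counts was 0.247 ± 0.0156 in slick and 0.246 ± 0.00995 in control larvae (SD, n = 3). At 48 hpf that ratio was 0.214 to 0.236 in slick and 0.225 to 0.235 in source, against 0.188 to 0.209 in control animals, so both oils lay above the controls.

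The 3 chains of type IX collagen fell too. COL9A1 had 72, 81.1 and 41.7 CPM in slick, against 104, 85.3 and 88.3 CPM (0.716-fold, adjusted p = 7.6e-05). COL9A2 had 233, 241 and 142 CPM, against 339, 268 and 291 CPM (0.701-fold, adjusted p = 9.2e-09). COL9A3 had 275, 288 and 206 CPM, against 419, 349 and 363 CPM (0.698-fold, adjusted p = 4.8e-11). In each chain the third slick library, replicate 9, was much lower than the other 2. That library was the lowest of the 9 of its stage for 8 of the 10 genes, all but COL10A1 and CRTAC1, and the highest for CRTAC1, while the control library of replicates 10 and 11 was the highest for the same 8. Without slick replicate 9, 8 of the 10 genes were called, where 17.9% of all genes were. COL9A1 and MATN3 were not called in that fit (adjusted p = 0.085 and 0.45).

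COL10A1, the collagen that appeared only at this stage, had the lowest fold of the 9. It had 197, 173 and 173 CPM in slick larvae, against 389, 375 and 412 CPM in control larvae, less in every slick library than in any other by a wide gap. The change was -1.07 ± 0.07 (SE; 0.478-fold, adjusted p = 3.8e-31). The ratio of COL10A1 to COL2A1 counts was 0.0469 to 0.0517 in slick and 0.0602 to 0.0754 in control larvae, without overlap.

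Of the non-collagen genes, EPYC had 39.4, 39.9 and 25.2 CPM in slick, against 67.7, 50.7 and 60.5 CPM in control larvae (0.603-fold, adjusted p = 3.7e-07). LECT1 had 145, 143 and 123 CPM, against 207, 168 and 165 CPM (0.777-fold, adjusted p = 3.8e-05). Both genes, higher in slick at 48 hpf, were lower in every slick library at 96 hpf. MATN3 had 49.1, 85.7 and 39.6 CPM in slick, against 87.1, 64.4 and 78 CPM in control larvae. The second slick library lay above 2 of the 3 control libraries, and the call (0.783-fold, adjusted p = 0.013) was lost with summed lines and with DESeq2 (adjusted p = 0.26 and 0.55) and without each of 4 of the 6 slick and control libraries in turn (adjusted p from 0.051 to 0.45). DESeq2 also lost COL9A1 (adjusted p = 0.25) and COL9A2 (adjusted p = 0.1), whereas the calls of COL2A1, COL9A3, COL11A2, COL10A1, EPYC, LECT1 and CRTAC1 were kept in every setting tried.

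CRTAC1 moved the other way. It had 137, 140 and 153 CPM in slick larvae, against 47.8, 49.1 and 48.4 CPM in controls, with tight groups far apart (1.61 ± 0.09 on the log2 scale, SE; 3.05-fold, adjusted p = 9.6e-37). The ratio of CRTAC1 to COL2A1 counts was 0.0393 ± 0.00418 in slick and 0.00825 ± 0.000761 in control larvae (SD, n = 3).

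**Figure D2:**
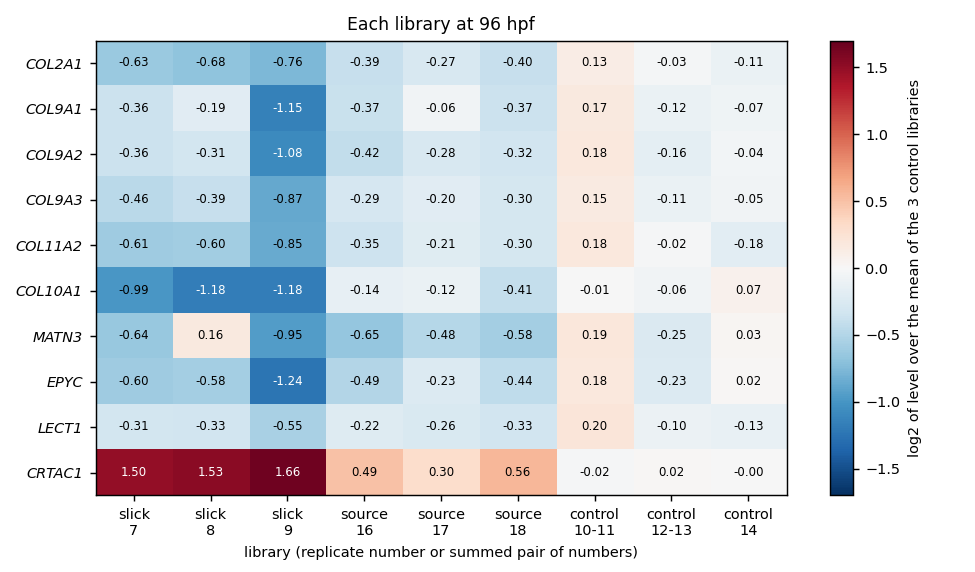
Level of each gene in each of the 9 libraries at 96 hpf as the log2 ratio to the mean of the 3 control libraries, with libraries across (slick, source, then control, by replicate number) and genes down. COL10A1 lies at -0.99, -1.18 and -1.18 in slick, slick replicate 9 is the lowest for 8 genes, and CRTAC1 is above 0 in every slick and source library.

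In source animals most of these genes were higher at 48 hpf and most were lower at 96 hpf. At 24 hpf, 2 of 9 genes tested were called higher and 0 lower, where 0.993% of all genes were higher. COL9A1 had 189, 174 and 172 CPM in source, against 156, 154 and 137 CPM in control embryos (1.2-fold, adjusted p = 0.045). COL11A2 had 1380, 1287 and 1468 CPM, against 1228, 1258 and 1221 CPM (1.12-fold, adjusted p = 0.037). Source and control libraries were apart in 4 of the 9 genes, these 2 among them, where 16.8% of all genes were apart. Neither call was kept without the filter on low counts (adjusted p = 0.069 for each). The other 7 genes had log2 changes from -0.13 (MATN3) to 0.34 (EPYC, adjusted p = 0.051).

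At 48 hpf, 7 of 9 genes tested were called higher in source animals, where 0.658% of all genes were, and 0 were called lower. The median log2 change of the 9 was 0.29, beside -0.00 over all genes. Of the type IX chains, COL9A1 had 182, 181 and 175 CPM in source, against 133, 132 and 147 CPM in control animals (1.31-fold, adjusted p = 0.00074), and COL9A3 had 396, 355 and 415 CPM, against 280, 300 and 303 CPM (1.33-fold, adjusted p = 9.6e-05). COL9A2 had 311, 304 and 297 CPM, against 254, 249 and 257 CPM (1.21-fold, adjusted p = 0.023). In all 3 chains every source library was above every control library. Of the 9 genes tested, 8 had groups that did not overlap, where 18.1% of all genes did not overlap.

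COL11A2 had 1793, 1634 and 1741 CPM in source, against 1442, 1458 and 1527 CPM in control animals at 48 hpf (1.17-fold, adjusted p = 0.021). EPYC had 121, 141 and 117 CPM, against 100, 98.7 and 91.8 CPM (1.31-fold, adjusted p = 0.0022), and LECT1 had 219, 193 and 193 CPM, against 162, 165 and 171 CPM (1.22-fold, adjusted p = 0.014). These groups did not overlap either. CRTAC1 had 32.2, 26.8 and 34.1 CPM, against 21.9, 15.4 and 20.5 CPM (1.63-fold, adjusted p = 0.0068).

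COL2A1, by contrast, differed little in source animals at 48 hpf: it had 7633, 7257 and 7430 CPM, against 7156, 7746 and 7323 CPM in controls, interleaved (1.01-fold, adjusted p = 0.95). MATN3 did not pass the test (1.17-fold, adjusted p = 0.22). The calls of COL9A1 and COL9A3 were kept in every setting tried. With lines summed 3 of the 9 were called, and the share of all genes called in that fit is not given here. Each of the 5 calls apart from COL9A1 and COL9A3 was lost in at least 1 fit that left out a library. There the adjusted p reached 0.15 for COL9A2, 0.17 for COL11A2, 0.081 for CRTAC1, 0.075 for EPYC and 0.23 for LECT1. COL9A2 and COL11A2 were also lost with every line as a feature (adjusted p = 0.065 and 0.076). The call of COL9A2 was lost with DESeq2 (adjusted p = 0.054) and with all 9 groups in 1 fit (adjusted p = 0.06) as well.

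At 96 hpf, 6 of 10 genes were called lower in source larvae, where 0.587% of all genes were lower, and CRTAC1, 1 of 10, was called higher, where 0.517% were higher. The median log2 change was -0.27, beside -0.00 over all genes. COL2A1 had 4520, 4904 and 4484 CPM in source, against 6467, 5774 and 5470 CPM in control larvae, all below the controls (0.795-fold, adjusted p = 6.9e-07). It was the only one of the 7 whose call was kept in every setting tried.

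COL11A2 had 1138, 1259 and 1179 CPM in source, against 1646, 1428 and 1284 CPM in control larvae (0.829-fold, adjusted p = 0.00097). COL9A2 had 224, 247 and 239 CPM, against 339, 268 and 291 CPM (0.799-fold, adjusted p = 0.004). COL9A3 had 308, 329 and 306 CPM, against 419, 349 and 363 CPM (0.843-fold, adjusted p = 0.022). In each of these the highest source library lay just under the lowest control library. Source and control groups did not overlap in 8 of the 10 genes, where 14.4% of all genes did not overlap.

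MATN3 had 48.6, 54.7 and 51.3 CPM in source, against 87.1, 64.4 and 78 CPM in control larvae (0.687-fold, adjusted p = 0.0015), and LECT1 had 155, 150 and 143 CPM, against 207, 168 and 165 CPM (0.833-fold, adjusted p = 0.037). CRTAC1 had 68.1, 59.5 and 71.3 CPM, against 47.8, 49.1 and 48.4 CPM (1.39-fold, adjusted p = 0.002). COL9A1 (0.842-fold, adjusted p = 0.31), COL10A1 (0.873-fold, adjusted p = 0.099, groups apart) and EPYC (0.781-fold, adjusted p = 0.12) did not pass the test. Leaving out the control library of replicates 10 and 11, the highest for 8 of the 10 genes, left 2 calls of the 7. That fit called 0.578% of all genes. The adjusted p without that library was 0.36 for COL9A2, 0.56 for COL9A3, 0.31 for COL11A2, 0.16 for MATN3 and 0.73 for LECT1.

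**Figure D3:**
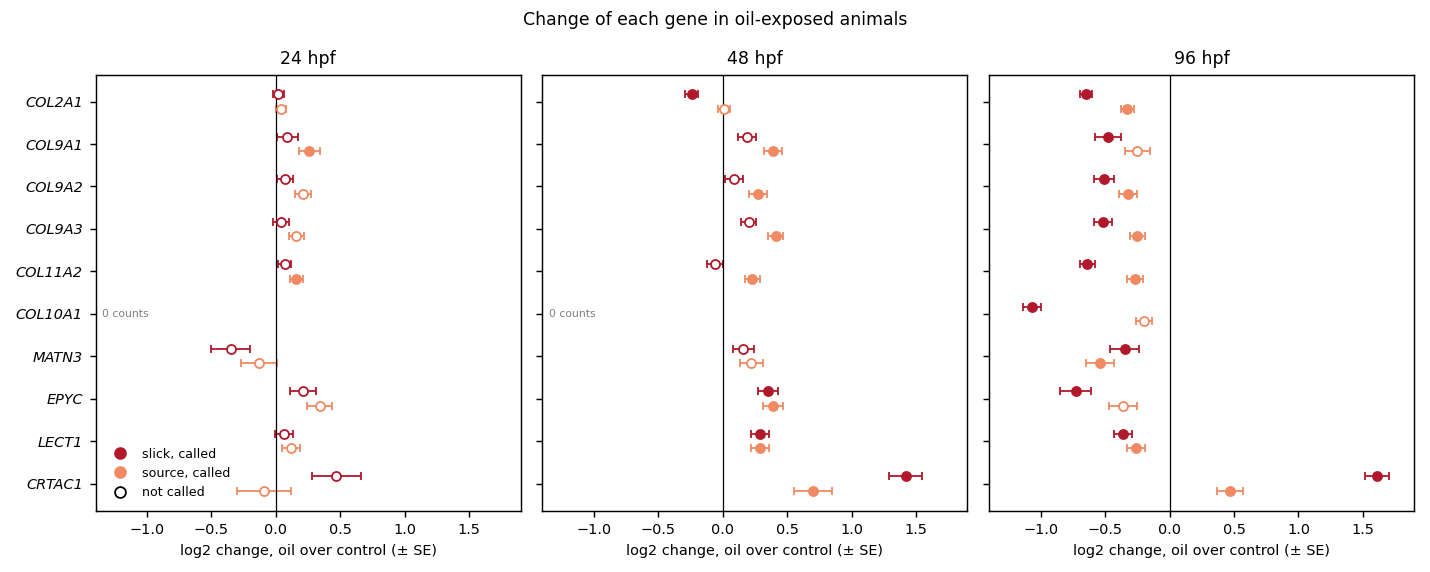
Log2 change of each gene in slick and in source over control animals at 24, 48 and 96 hpf (horizontal axis, ± SE), filled where the gene was called and open where it was not. Most collagen points lie right of 0 in source at 48 hpf and left of 0 in both oils at 96 hpf, where COL10A1 in slick is at -1.07 and CRTAC1 in slick at 1.61.

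Both oils were compared with the same control libraries, so slick was also set directly against source. At 24 hpf edgeR and DESeq2 both called 0 of 9 genes, where edgeR called 0.219% of all genes in either direction. Of the 9, 5 had an unadjusted p below 0.05, as did 7.62% of all genes. At 48 hpf COL2A1 and COL11A2 were called lower in slick than in source animals, 2 of 9 where 0.273% of all genes were. CRTAC1 was called higher, 1 of 9 where 0.471% of all genes were. COL2A1 was 0.838-fold (adjusted p = 0.0026), COL11A2 0.82-fold (1410 ± 185 against 1723 ± 80.9 CPM, SD, n = 3, adjusted p = 0.0028) and CRTAC1 1.65-fold (adjusted p = 0.0016). With lines summed the calls of COL2A1 and COL11A2 were lost (adjusted p = 0.099 and 0.15). EPYC and LECT1 stood at 123 and 202 CPM in slick and 126 and 202 CPM in source animals, changes of -0.04 ± 0.08 and 0.00 ± 0.07 on the log2 scale (SE).

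At 96 hpf, 4 of 10 genes were called lower in slick than in source larvae (6.47% of all genes) and 1 higher (6.99%). COL10A1 had the lowest fold, at 181 ± 13.6 CPM in slick against 337 ± 36.2 CPM in source larvae (SD, n = 3; 0.547-fold, adjusted p = 3.2e-22). COL2A1 was 0.804-fold (adjusted p = 1.9e-07), COL11A2 0.774-fold (adjusted p = 7.5e-08) and COL9A3 0.828-fold (adjusted p = 0.0023), while CRTAC1 was 2.2-fold higher (adjusted p = 1.4e-22). In none of these 5 did the groups overlap, nor did they in EPYC, which was not called (adjusted p = 0.054). That made 6 of the 10 genes, where 27.9% of all genes did not overlap. COL9A3 was not called with lines summed (adjusted p = 0.072), with DESeq2 (0.26) or without slick replicate 9 (0.23), and without that library COL9A1 and COL9A2 had log2 changes of 0.006 and 0.019. MATN3, not called with all libraries, was called higher in slick without replicate 9 (log2 change 0.407, adjusted p = 0.018). Without slick replicate 8 MATN3 stood at -0.197 (adjusted p = 0.44). Without slick replicate 8 there were 8 calls among the 10 genes, where 10.5% of all genes were called.

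Whether an oil's effect differed between stages was tested directly, with effect at the later stage minus effect at the earlier one. Between 24 and 48 hpf, 2 of 9 genes changed their response to slick, where 0.674% of all genes did: COL2A1 (-0.27 ± 0.07, SE; adjusted p = 0.044) and CRTAC1 (0.95 ± 0.23, adjusted p = 0.02), calls that were not kept in every setting tried. For source 0 of 9 did, where 0.146% of all genes did, and DESeq2 called 0 of the 7 to which it gave an adjusted p. By edgeR 2 of the 9 had an unadjusted p below 0.05, as did 7.95% of all genes. Between 48 and 96 hpf the response turned downward in 8 of 9 genes for slick, where 11.6% of all genes changed in either direction, and in 8 of 9 for source, where 0.652% did. CRTAC1 was the gene left over both times, at 0.15 ± 0.16 for slick and -0.24 ± 0.18 for source.

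The turn was widest for EPYC in slick, at -1.12 ± 0.15 (SE; adjusted p = 5.3e-09), since it was 1.28-fold of control at 48 hpf and 0.603-fold at 96 hpf. It was -0.76 ± 0.10 for COL9A3 and -0.44 ± 0.07 for COL2A1 in slick (adjusted p = 4.8e-09 and 8.1e-07). In source it was widest for MATN3, at -0.78 ± 0.16 (adjusted p = 0.0018), and it was -0.67 ± 0.10 for COL9A3 and -0.36 ± 0.07 for COL2A1 (adjusted p = 8.4e-06 and 0.00094). The median over the 9 genes was -0.64 for slick and -0.61 for source, beside -0.03 and -0.01 over all genes. The stages share no libraries, but both oils share the controls of each stage. In every setting tried, 7 of the 8 slick calls were kept (all but MATN3) and 3 of the 8 source calls (COL2A1, COL9A3 and COL11A2). For source, 3 of the 9 genes were called with lines summed and 5 of the 6 with an adjusted p with DESeq2, which gave none to MATN3, EPYC and CRTAC1.

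A human gene identifier can cover several fish genes or assembled transcripts, and the table gave COL2A1 16 distinct lines, COL9A1 11, COL9A2 8, COL11A2 7, COL10A1, MATN3 and CRTAC1 3 each with counts, COL9A3 2, and EPYC and LECT1 1. The lines of a gene may share reads. Tested as features of their own in slick at 96 hpf, all 16 lines of COL2A1 were lower (log2 changes from -0.7 to -0.63), as were all 7 of COL11A2, all 8 of COL9A2, both of COL9A3 and both tested lines of COL10A1 (-1.05 and -0.84). Of the 11 COL9A1 lines 10 were called lower, with changes from -0.92 to -0.39 over all 11. The 1 line each of EPYC and LECT1 was also lower. All 3 CRTAC1 lines were higher (1.53 to 1.63), and 1 of 2 tested MATN3 lines was lower. At 48 hpf 8 of the 16 COL2A1 lines were called lower in slick. In source at 48 hpf, 7 of 11 COL9A1 lines, both COL9A3 lines and the 1 line each of EPYC and LECT1 were called higher. Only 1 of 7 COL11A2 lines, 1 of 3 CRTAC1 lines and 0 of 8 COL9A2 lines were called higher there. The share of all lines called in these fits is not given here.

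COL9A1 was the gene whose lines parted. Lines 1 to 9, ordered by total count, fell between 48 and 96 hpf in controls, whereas lines 10 and 11 rose. Line 10 averaged 18.8 CPM at 24 hpf, 22.2 CPM at 48 hpf and 54.6 CPM at 96 hpf in controls (2.38-fold at 96 against 48 hpf, adjusted p = 3.3e-16). Its Pearson correlation with the main line over the 27 libraries was -0.53, against at least 0.981 for lines 2 to 9, a description over libraries that share stages. In slick larvae at 96 hpf line 10 stood at 27.9 ± 6.85 CPM, against 54.6 ± 7.95 CPM in controls (SD, n = 3; 0.527-fold, adjusted p = 1.7e-08), beside 0.716-fold for the main line. In source larvae it averaged 45 ± 5.32 CPM (0.836-fold of control, adjusted p = 0.48), and slick was 0.63-fold of source (adjusted p = 0.00048). Line 11 gave nearly the same values (53.2 CPM in controls at 96 hpf). The labels do not say whether these lines are another gene or another transcript of COL9A1.

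**Figure D4:**
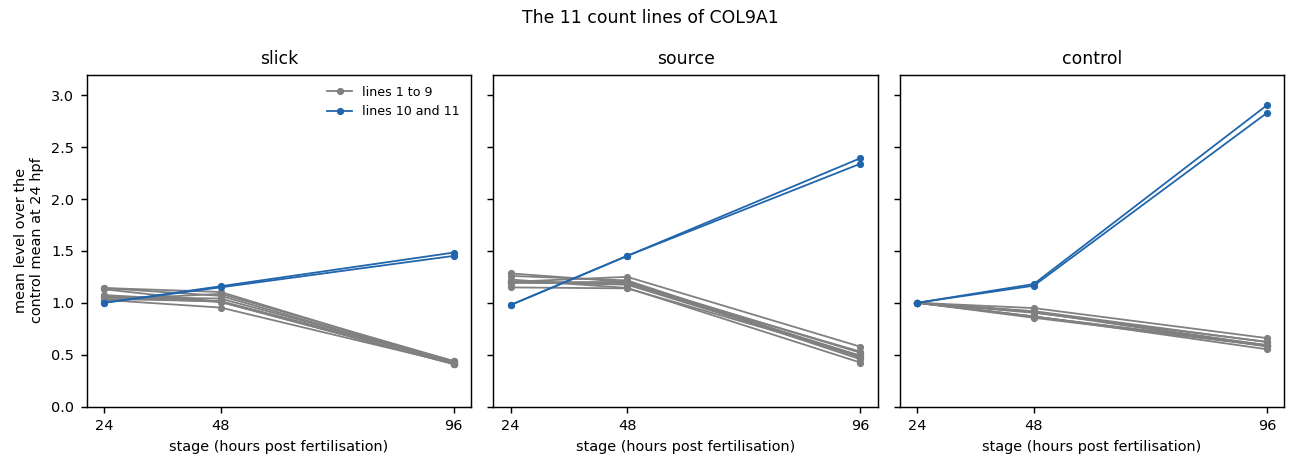
The 11 lines of COL9A1 as mean level in a group over the control mean at 24 hpf (vertical axis, from 0) against stage, for slick, source and control. Lines 1 to 9 end below 1 at 96 hpf in every group, whereas lines 10 and 11 end near 3 in controls and about midway between 1 and 2 in slick.

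Genes around this matrix were read from lists chosen with earlier results of these data known. Their counts in slick larvae at 96 hpf stand beside 10.9% of all genes called higher and 10.4% lower, with a median of 0.01. In slick larvae at 96 hpf, other cartilage matrix genes had 4 lower and 2 higher of 14 tested (median log2 change -0.20): COL11A1, a further type XI chain, at 0.718-fold (adjusted p = 1.3e-14), COL27A1, a fibrillar collagen of cartilage, at 0.59-fold (adjusted p = 5.6e-11), and CILP, a matrix protein, higher at 1.37-fold (adjusted p = 6e-07). Regulators of cartilage had 5 lower and 0 higher of 17 (median -0.06), among them RUNX3 (0.494-fold, adjusted p = 0.00014), SOX9, the transcription factor that drives COL2A1 in vertebrates (0.725-fold, adjusted p = 0.00042), and FOXC1 (0.814-fold, adjusted p = 0.0069). Other collagens had 10 lower and 0 higher of 20 (median -0.27), led by COL5A3 (0.746-fold), COL5A1 (0.808-fold) and COL6A1 (0.765-fold), with adjusted p = 2e-08, 2.1e-07 and 5.1e-07.

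The matrix turnover list had 9 higher and 0 lower of 15 tested in slick larvae at 96 hpf (median 0.24). The other 6 did not pass the test, and the lowest log2 change was -0.31. CTSB, a lysosomal protease, was 1.98-fold (adjusted p = 2.4e-24), MMP14, a membrane-bound collagenase, 1.6-fold (adjusted p = 9.4e-16), and MMP11, another metalloproteinase, 2.34-fold (adjusted p = 5.4e-13). Genes that process collagen chains were split, with 3 higher and 5 lower of 28 (median 0.01): PCOLCE2, a helper of propeptide removal, was 0.38-fold (adjusted p = 4.2e-08), PLOD2, a lysyl hydroxylase, 0.762-fold (adjusted p = 1.5e-06) and LOXL3, a cross-linking enzyme, 0.652-fold (adjusted p = 5.1e-05). Genes of chondroitin sulfate synthesis had 0 higher and 1 lower of 17 (DSE, 0.792-fold, adjusted p = 0.00064).

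Of neighbouring tissues in slick larvae at 96 hpf, bone genes had 2 higher and 2 lower of 12, with the type I chains COL1A1 and COL1A2 at 0.736-fold and 0.794-fold (adjusted p = 1.9e-13 and 1.8e-08) and the growth factor BMP4 at 1.31-fold (adjusted p = 0.0007). Notochord genes had 0 higher and 3 lower of 11: KRT8, COL8A1 and COL8A2, at 0.296-fold, 0.608-fold and 0.74-fold (adjusted p = 1.9e-10, 4.3e-06 and 0.028). Of small proteoglycans and tendon genes, 2 were higher (THBS4 1.24-fold, FMOD 1.91-fold) and 1 lower (TNMD 0.528-fold) of 8, with adjusted p = 7.1e-07, 0.013 and 0.03. Skeletal muscle had 3 higher (CKM 1.27-fold, MYLPF 1.22-fold and TNNT3 1.26-fold, adjusted p = 1.6e-09, 9.3e-07 and 4.2e-06) and 2 lower of 8. Without slick replicate 9 turnover had 8 higher and 1 lower of 15, and other collagens 8 lower of 20. In that fit 9.13% of all genes were higher and 8.8% lower.

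In source larvae at 96 hpf the same lists had few calls, beside 0.517% of all genes higher and 0.587% lower: other cartilage matrix 3 lower of 14 (MATN4 0.778-fold, COL11A1 0.855-fold, HAPLN1 0.798-fold, adjusted p = 0.0027, 0.0036 and 0.0082), bone 2 lower of 12 (COL1A1 0.85-fold, COL1A2 0.861-fold, adjusted p = 0.0015 and 0.0043) and other collagens 1 lower of 20 (COL5A2 0.858-fold, adjusted p = 0.0037). The other 7 lists had 0 calls each, and with lines summed these 3 had 0 as well, in a fit whose share of all genes called is not given here. Turnover genes had a median of -0.07 and 0 of 15 called in source. In the direct comparison, 8 of 15 turnover genes were called higher and 0 lower in slick than in source larvae (6.99% and 6.47% of all genes), with MMP14 at 1.7-fold, CTSB at 1.65-fold and MMP2 at 1.37-fold (adjusted p = 1.3e-16, 3.2e-14 and 3.9e-09).

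In source animals at 48 hpf, 0.658% of all genes were called higher and 0.658% lower. There, where 7 of the 10 genes were higher, other cartilage matrix genes had 0 higher and 1 lower of 12 (COMP, 0.846-fold, adjusted p = 0.024). COL1A1, of bone (0.861-fold, adjusted p = 0.0069), and COL12A1, of the other collagens (0.802-fold, adjusted p = 0.00074), were the only calls in the remaining lists. In slick animals at 48 hpf, beside 1.48% of all genes higher and 1.82% lower, other cartilage matrix had 1 higher and 3 lower of 12 (CILP 0.739-fold, HSPG2 1.23-fold, HAPLN1 0.838-fold, adjusted p = 3.1e-06, 0.00076 and 0.0041), bone 0 higher and 3 lower of 12 (COL1A1 0.719-fold, COL1A2 0.785-fold, SPARC 0.815-fold) and other collagens 1 higher and 5 lower of 19, with COL12A1 at 0.727-fold (adjusted p = 1.1e-07). Regulators of cartilage had 0 higher and 2 lower of 17, small proteoglycans and tendon 0 higher and 2 lower of 7. Collagen processing had 1 higher and 2 lower of 28, matrix turnover 1 higher and 0 lower of 15, and skeletal muscle 1 higher and 0 lower of 8. Chondroitin sulfate synthesis and notochord genes had 0 calls. SERPINH1, the chaperone of newly made collagen, was 1.4-fold in slick at 48 hpf (adjusted p = 0.00025), 1.34-fold in slick at 24 hpf (adjusted p = 0.00033), the only call of any list there, and 1.3-fold in source at 24 hpf (adjusted p = 0.0014). At 24 hpf 4 of 28 collagen processing genes were higher in source, where 0.993% of all genes were. P4HA1 and P4HA2, prolyl hydroxylase subunits, were among the 4 (1.23-fold and 1.3-fold, adjusted p = 0.00011 and 0.0074).

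**Figure D5:**
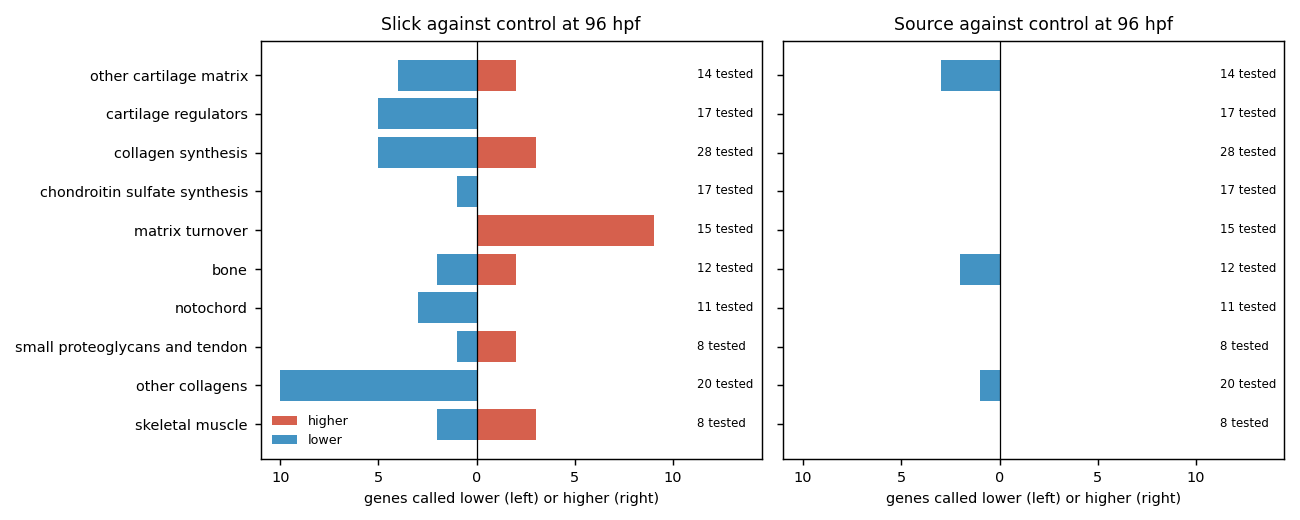
Number of genes of each list called lower (bars to the left) or higher (to the right) at 96 hpf in slick over control (first panel) and source over control (second panel), with the number tested. Matrix turnover has 9 higher and 0 lower in slick, other collagens 10 lower and 0 higher, and source has 3 lower at most in any list.

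Marker levels moved beside these results. At 96 hpf the summed level of all 5 cartilage markers outside the 10 genes was 1873 to 2057 CPM in slick, 2295 to 2381 CPM in source and 2580 to 3032 CPM in control larvae, with none at 0. Most of it was COL11A1 (1746, 2116 and 2505 CPM on average in slick, source and control larvae). The means of SOX9, ACAN and MATN1 had the same order, whereas HAPLN1 was lowest in source, at 134, 110 and 141 CPM. The 3 bone markers with counts (of 5) summed to 4401 to 5070, 5251 to 5623 and 6087 to 6658 CPM in slick, source and control larvae, most of it COL1A1. The other bone markers did not follow that order: SP7 averaged 84.4, 66.6 and 75.7 CPM and ALPL 11, 10.9 and 10.9 CPM. The 4 notochord markers with counts (of 5) summed to 87.8 to 99.5, 91.9 to 108 and 106 to 124 CPM. Of these, COL8A1 averaged 26.3, 34 and 44.6 CPM, T 6.76, 6.98 and 10 CPM and FOXA2 36.6, 36.7 and 39.6 CPM. SHH went the other way, at 25.6, 22.8 and 21.8 CPM. The 4 skeletal muscle markers with counts (of 5) summed to 36404 to 37625, 28054 to 32089 and 29750 to 31401 CPM, most of it CKM and MYLPF. The part of these tissues in the changes of the 10 genes was not tested.

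Likeness of pattern was taken over the 9 group means of log2 CPM among 4894 genes, as a description: the points share stages and libraries. The genes nearest to COL2A1 were CDC42BPB, NUP98 and 1 known by identifier only (r = 0.983, 0.979 and 0.979). Among the 10 genes COL9A1 was nearest to it (r = 0.933) and CRTAC1 the most opposed (r = -0.955). The genes nearest to COL10A1 were PRPH2, OPN1LW and GRK7, genes of photoreceptor cells, all at r = 0.999. Since COL10A1 had 0 counts at 24 and 48 hpf, its r rests mainly on the step up to 96 hpf. Nearest to CRTAC1 were ZFAND2B, FOXQ1 and PLK2 (r = 0.975, 0.961 and 0.954).

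In the authors' deposited table, COL2A1 in slick at 96 hpf has a log2 change of -0.72 (adjusted p = 7e-12), COL10A1 -1.05 (1.5e-48), EPYC -0.68 (6.6e-05), COL9A2 -0.45 (0.064) and CRTAC1 1.52 (1.2e-46). For source at 48 hpf the authors' deposited table gives COL2A1 0.14 (adjusted p = 0.00072) and COL11A2 0.33 (2.3e-11), and for slick at 48 hpf COL2A1 -0.13 (0.25). The deposited mean of COL2A1 for slick against control at 24 hpf is 17365 normalised counts. The line kept here had 15223 to 16380 counts in slick and 13733 to 15142 in control embryos, all below that mean. The deposited changes of COL2A1 may therefore rest on other counts than the kept line. The deposited mean of COL11A2 in source at 48 hpf, 1715 normalised counts, is below that of the line kept here, so its deposited values may belong to another line. For COL9A3 and MATN3 the deposited means for slick against control at 96 hpf, 0.255 and 4.24 normalised counts, are far below the lines kept here. Their deposited changes are therefore not those of the kept lines. MATN3 also had a line of few counts, 109 in total. The 2 lines of COL9A3 had 23175 and 22791 counts in total, so its deposited mean belongs to neither.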

How the data were processed

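The authors' deposited table holds whole-number counts per transcript line under human gene identifiers. HTSeq, DESeq2 and hg19 are named without versions, per the submitters' processing notes, and no aligner is named there. The deposited comparison tables hold the authors' mean of normalised counts (a signal over the samples compared), log2 changes with their errors, a test statistic (a score) and p-values, per the file headers.

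The counts were analysed in R 4.3.3 with edgeR 4.0.16 (TMM, filterByExpr, quasi-likelihood F-test, Benjamini-Hochberg adjustment over all genes, threshold 0.05), within a stage for oil comparisons and over 27 libraries for development and for differences between stages. Each identifier was represented by its line of highest total. Lines without identifier (332, at most 0.043% of a sample) were left out. In 5 pairs, control samples did not differ detectably beyond sampling noise (chi-square p above 0.001) and were summed and counted as 1 sample, unlike the other 41 pairs. No label ties samples to spawns or cultures of their own, and p-values therefore cover only the spread between these samples, which may be technical. Levels are TMM-normalised CPM. The SE is the log2 change over the root of F. Scripts were tested on simulated data.

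All 10 genes are named. Of each list up to 3 called genes with the lowest adjusted p are named. For 3 genes, the 3 with the most similar pattern are named. The genes and lists were chosen with earlier results of these data known. DESeq2 1.42.0, RLE scaling, no filter, summed or separate lines, unsummed samples, other sample sets, a replicate block and leaving out single libraries were the alternatives.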

Additional observations from a re-analysis of the deposited data

Results flagged for a closer look

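Each oil's log2 change was compared between consecutive stages with an interaction term in edgeR's quasi-likelihood fit (later minus earlier stage, Benjamini-Hochberg adjustment over all genes), and these are the genes whose difference was called. Slick at 48 minus 24 hpf differed for COL2A1 (-0.27) and CRTAC1 (0.95). Slick at 96 minus 48 hpf differed for COL2A1 (-0.44), COL9A1 (-0.71), COL9A2 (-0.64), COL9A3 (-0.76), COL11A2 (-0.62), MATN3 (-0.55), EPYC (-1.12) and LECT1 (-0.70). Source at 96 minus 48 hpf differed for COL2A1 (-0.36), COL9A1 (-0.66), COL9A2 (-0.61), COL9A3 (-0.67), COL11A2 (-0.52), MATN3 (-0.78), EPYC (-0.76) and LECT1 (-0.57). Both oils share the control libraries of each stage, so the last 2 sets of values are not independent. COL10A1 could not be compared this way because it had 0 counts at 48 hpf.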

How the results depend on the processing

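Of 1991 values of single genes under the alternatives, 1827 kept their direction and call, 131 lost the call, 23 gained it, 10 uncalled ones moved and 0 called ones changed sign. With the lines of a gene summed, 1 gene was called for slick at 48 hpf, 0 for source at 24 hpf, 3 for source at 48 hpf, 1 for source at 96 hpf, 1 for slick against source at 48 hpf, 1 for the slick effect at 48 against 24 hpf and 3 for the source effect at 96 against 48 hpf. With DESeq2, which gave no adjusted p to some genes, the counts were 1 (of 6) for source at 24 hpf, 2 for source at 96 hpf, 1 for the slick effect at 48 against 24 hpf and 5 (of 6) for the source effect at 96 against 48 hpf. Source at 24 hpf had 0 calls without the low-count filter, 0 among the lines kept with every line as a feature (where 3 of the 7 lines of COL11A2 were called higher) and 0 with all 9 groups in 1 fit. The slick effect at 48 against 24 hpf had 1 with RLE scaling and 1 with every line as a feature. The share of all genes called in these alternative fits is not given here, so the counts cannot be set beside it. The cause of these shifts was not tested.

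Leaving out single libraries gave 3 to 7 calls for slick at 48 hpf, 8 to 10 for slick at 96 hpf, 0 to 4 for source at 24 hpf, 3 to 7 for source at 48 hpf, 2 to 8 for source at 96 hpf, 5 to 8 for slick against source at 96 hpf and 0 to 2 for the slick effect at 48 against 24 hpf. Of all genes, those fits called 2.06 to 3.49% for slick at 48 hpf and 16.5 to 19.8% at 96 hpf. For source they called 0.67 to 1.4% at 24 hpf, 0.317 to 1.23% at 48 hpf and 0.532 to 1.22% at 96 hpf. They called 10 to 11.8% for slick against source at 96 hpf and 0.365 to 0.819% for that slick effect. With a replicate block slick had 0 calls at 24 hpf and 2 at 48 hpf, and the share of all genes called in those fits is not given here. Samples sharing a number did not deviate together (correlations of 0.028, -0.0014 and 0.022 at 24 hpf and 0.018, -0.0055 and -0.026 at 48 hpf). With few libraries per group, such correlations cannot show whether the samples were paired. Depth, 1823727 to 2560303 counts per deposited sample, limits the genes with few reads: CRTAC1 had 28 to 353 counts per library and EPYC 58 to 405.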
